A study of Mus musculus with 42 samples.

Results

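Mesenchymal stromal cells (MSCs) from mouse bone marrow were exposed for 48 h to 1 of 2 nuclear receptor ligands, and the RNA of the 2 treatments was compared directly. The comparison uses 12 of the 42 samples in the series, namely the 6 RNA libraries of the treatment labelled AGN194204 (100 nM) and the 6 labelled rosiglitazone (100 nM), chosen by treatment label alone. The 6 libraries of the solvent control (dimethyl sulfoxide, DMSO, 0.1%, also 48 h) are not part of the contrast and are given beside it for orientation. The remaining 6 RNA libraries, from cells given tributyltin (50 nM, 48 h), entered the filter, scaling and spread estimate of the shared fit, and their values are not described. All the cells were C57BL/6 MSCs bought commercially and expanded in calf serum, and the labels name no differentiation cocktail. Nothing in the labels says whether the 6 libraries of a treatment came from separate thaws, passages or only separate wells, so p-values measure the spread between these libraries, which may be technical.

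MSCs are plated stromal cells that can be driven to form fat, bone or cartilage. Rosiglitazone is a thiazolidinedione drug that binds and activates PPARγ, the nuclear receptor that governs fat cell formation. The other ligand, AGN194204, is a synthetic activator selective for the retinoid X receptors (RXR). RXR binds DNA as the partner of many nuclear receptors. Its dimers with PPARs and with the liver X receptors (LXR) are called permissive, because a ligand of either partner can activate them. Its dimers with the retinoic acid receptors (RAR), the thyroid hormone receptors and the vitamin D receptor are usually described as non-permissive or conditionally so. The comparison therefore sets a ligand of the shared partner against a ligand of 1 of the partners, at the same molar dose and time.

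The 4 promoters below belong to the gene with the largest difference (Abca1) and to members of the lists with the largest shares of higher and lower calls (interferon-induced, GTPase and DNA replication genes). Each is the stretch of 250 bases before the annotated start in RefSeq's GRCm38.p6, the build that the deposited files also use, and is written 5′ to 3′ on the gene's strand. Capitals mark the match named for each gene, and matches of other motifs, such as an E2F site in the Abca1 stretch, are left in lower case. In Abca1 (chr4:53159896-53160145, minus strand) they mark a direct repeat of 2 half-sites with 4 bases between them, the arrangement known for LXR-RXR dimers, which lies on the strand opposite the gene's. In Igtp (chr11:58199306-58199555, plus strand) and Isg15 (chr4:156200819-156201068, minus strand) they mark the core of an interferon response element, which in Isg15 occurs in 3 overlapping copies. In Orc1 (chr4:108579204-108579453, plus strand) they mark a site of the E2F factors that drive S phase genes, again on the opposite strand.
Abca1: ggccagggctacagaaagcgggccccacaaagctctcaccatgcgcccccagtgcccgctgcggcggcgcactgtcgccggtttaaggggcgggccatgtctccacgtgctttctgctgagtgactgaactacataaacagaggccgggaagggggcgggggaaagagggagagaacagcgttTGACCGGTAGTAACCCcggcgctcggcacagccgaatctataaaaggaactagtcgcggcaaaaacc
Igtp: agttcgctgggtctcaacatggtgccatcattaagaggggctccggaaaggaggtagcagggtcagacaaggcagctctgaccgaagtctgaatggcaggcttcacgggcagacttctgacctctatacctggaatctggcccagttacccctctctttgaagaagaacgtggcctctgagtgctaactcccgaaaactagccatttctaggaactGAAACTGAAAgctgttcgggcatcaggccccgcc
Isg15: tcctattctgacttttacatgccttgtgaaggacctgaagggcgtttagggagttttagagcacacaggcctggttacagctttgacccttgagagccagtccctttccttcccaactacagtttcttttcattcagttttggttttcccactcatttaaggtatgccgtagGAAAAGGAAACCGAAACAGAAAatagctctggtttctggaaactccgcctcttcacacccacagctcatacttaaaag
Orc1: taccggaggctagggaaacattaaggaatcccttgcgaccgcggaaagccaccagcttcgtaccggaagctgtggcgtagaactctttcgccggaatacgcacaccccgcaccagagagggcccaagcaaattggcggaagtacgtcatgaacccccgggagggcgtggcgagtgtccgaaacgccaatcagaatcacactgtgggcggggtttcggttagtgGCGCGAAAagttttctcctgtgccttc

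Sequencing depth was alike in both treatments. The AGN194204 libraries held 3801758 to 4877089 counts on genes and the rosiglitazone libraries 4047841 to 4601891, and added ERCC spike-in RNA gave 0.426 ± 0.0203 and 0.446 ± 0.021 counts per 100 gene counts (SD, n = 6 each; exact two-sided permutation test, p = 0.136). None of 7 such library measures differed past the threshold after adjustment (lowest adjusted p = 0.477, exact permutation tests). The first principal component, with 30.4% of the variance among the 12 libraries, placed AGN194204 at 12.1 to 20.6 and rosiglitazone at -18.7 to -11.9. On the second, with 9.11%, AGN194204 replicates 5 and 6 stood apart at -17.9 and -14.1, against -5.15 to 9.3 for the other 10 libraries, so counts are also given without them. Of 20 stromal markers 18 were tested, of which 6 were higher and 6 lower under AGN194204. Over all genes tested 13.5% were higher and 11.2% lower. The summed level of the stromal markers was 3620 to 3860 CPM (counts scaled to a common library total) under AGN194204 and 3880 to 3960 CPM under rosiglitazone. Markers of mature fat cells summed to at most 3.8 CPM in any library, with Adipoq and Lep at 0 counts in all 12, and of 19 blood and macrophage markers 6 were at 0 in all 12, among them the defining Adgre1 and Tyrobp, while the macrophage markers Csf1r (7.1 and 5.16 CPM), Cd68 (4.92 and 4.5 CPM) and Cx3cr1 (2.83 and 3.23 CPM) had counts under AGN194204 and rosiglitazone and were not called. The summed blood list was 273 to 296 CPM under AGN194204 and 303 to 316 CPM under rosiglitazone. It was carried mostly by Cd34, called lower under AGN194204 (218 against 254 CPM), and Cd14, called higher (49.2 against 41.1 CPM). The part of any such shift in the results below was not tested. In bulk RNA, fewer cells of a type and less RNA per cell cannot be told apart.

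Many genes differed between the ligands. Of 12529 genes tested, 3097 (24.7%) differed at an adjusted p under 0.05 in edgeR's quasi-likelihood test with Benjamini-Hochberg adjustment. AGN194204 had the higher level for 1697 genes (13.5%) and the lower level for 1400 (11.2%). The higher calls were the larger ones. Their median size was 0.33 on the log2 scale, 416 exceeded 1.5-fold, 135 (1.08%) reached 2-fold and 9 reached 4-fold. The lower calls had a median of 0.22, with 82 past 1.5-fold, 17 (0.136%) at 2-fold and 0 at 4-fold. All 6 AGN194204 libraries lay above all 6 rosiglitazone libraries for 826 genes (6.59%) and below them for 602 (4.8%). When library sizes were set by the spike-ins instead of the genes, 1162 genes were higher and 184 lower. The all-gene median shifted by 0.0517 (log2) with that scaling. Without AGN194204 replicates 5 and 6 the counts were 1755 and 1415.

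**Figure D1:**
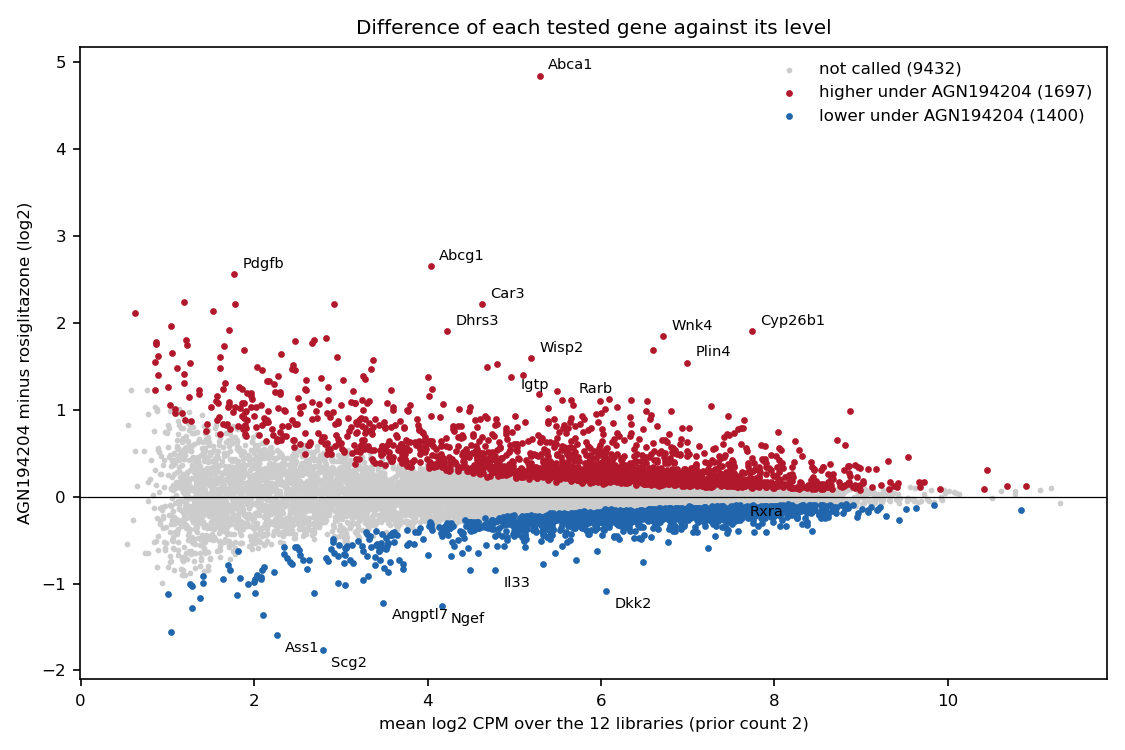
Each point is 1 of the 12529 genes tested: the x axis is its mean level over the 12 libraries (log2 CPM, prior count 2) and the y axis the fitted difference, AGN194204 minus rosiglitazone (log2). Red and blue mark the 1697 higher and 1400 lower genes; Abca1 lies alone at 4.85, while most blue points sit within 1 log2 unit of 0.

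Set against DMSO, with the shared control libraries, AGN194204 raised 1600 genes (12.8%) and lowered 1414 (11.3%), whereas rosiglitazone raised 77 (0.615%) and lowered 53 (0.423%). Both of these comparisons use the same DMSO libraries, so their values are given side by side only.

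Receptor genes were called for several partners of RXR. Of 14 tested genes for RXR and its partners (19 listed), 7 were higher and 1 lower under AGN194204. As shares these were 50% and 7.14%, against 13.5% and 11.2% of all genes. The median difference was 0.17 against -0.00 over all genes tested. Rxra, which encodes RXRα, had 178, 191 and 212 CPM (lowest, median and highest library) under AGN194204 and 189, 200 and 206 CPM under rosiglitazone. Its groups overlapped, and the difference of -0.03 had a 95% interval of -0.12 to 0.05. Rxrb (0.11, adjusted p = 0.123; 0.0435 when only the 12 libraries were fitted) and Rara (0.05, adjusted p = 0.555) were not called either.

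Pparg, the receptor that rosiglitazone binds, stood at 64.2, 69.5 and 72.5 CPM under AGN194204 and at 32.7, 36.1 and 42.6 CPM under rosiglitazone. No library of 1 group reached the other, and the difference was 0.90 ± 0.06 (log2, SE, edgeR adjusted p = 1.1e-13), or 1.87-fold. The DMSO libraries lay between them at 42.1 to 47.3 CPM, and rosiglitazone was lower than DMSO by a fitted -0.27 (adjusted p = 0.0356) while AGN194204 was higher by 0.63. Nr1h3, which encodes LXRα, was also higher, at 16.6 ± 2.36 CPM under AGN194204 and 8.29 ± 1.24 CPM under rosiglitazone (difference 1.00, adjusted p = 1.16e-05). Nr1h2, encoding LXRβ, was 0.21 higher with overlapping groups (adjusted p = 0.00382). The lower receptor gene was Nr4a2, an orphan receptor that can pair with RXR, at 43 to 51.3 CPM against 52.3 to 57.6 CPM (-0.26, adjusted p = 0.00567); it was not called under spike-in scaling (adjusted p = 0.228). Without AGN194204 replicate 4 the list had 2 lower calls.

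Rarb, the RARβ gene and itself a classical RAR target, had 65.9, 73.2 and 80.4 CPM under AGN194204 and 31.2, 33 and 38.2 CPM under rosiglitazone. The groups were apart by 1.12 ± 0.07 (adjusted p = 5.29e-15). DMSO cells had 39.6 to 54.2 CPM, so the compounds moved it to opposite sides of the control, by 0.62 and -0.50. Of 20 receptor coactivators and corepressors tested, 2 were higher, Ncoa1 (0.26) and Ncoa3 (0.30), a share of 10% below the background of higher calls; neither was called under spike-in scaling (adjusted p = 0.139 and 0.0678). Ncoa1 also lost its call without AGN194204 replicate 2 (adjusted p = 0.0621) or 4 (0.109) or rosiglitazone replicate 1 (0.0528), 3 (0.0858) or 5 (0.0771).

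LXR targets held the largest difference of all. Abca1, the transporter that passes cholesterol out of the cell onto apolipoproteins, had 181, 201 and 245 CPM under AGN194204 and 4.33, 7.17 and 10.2 CPM under rosiglitazone. Every AGN194204 library was far above every rosiglitazone library. The fitted difference was 4.85 ± 0.11 (28.8-fold, adjusted p = 1.24e-29), and the rosiglitazone libraries overlapped the DMSO range of 5.35 to 11.1 CPM. Abcg1, the transporter that passes cholesterol to lipoprotein particles, had 36.2, 39.1 and 48 CPM against 3.94, 6.4 and 9.17 CPM (2.65 ± 0.13, 6.29-fold, adjusted p = 5.32e-19). Of 12 tested LXR targets (20 listed), 9 were higher (75%, against 13.5% of all genes) and 0 lower (against 11.2%). Their median was 0.58. At the lower end of size were Scd1, a fatty acid desaturase (0.60), Srebf1, the regulator of fatty acid synthesis (0.57), and Scd2 (0.45). Apoe, Pltp and Arl4c were not called.

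**Figure D2:**
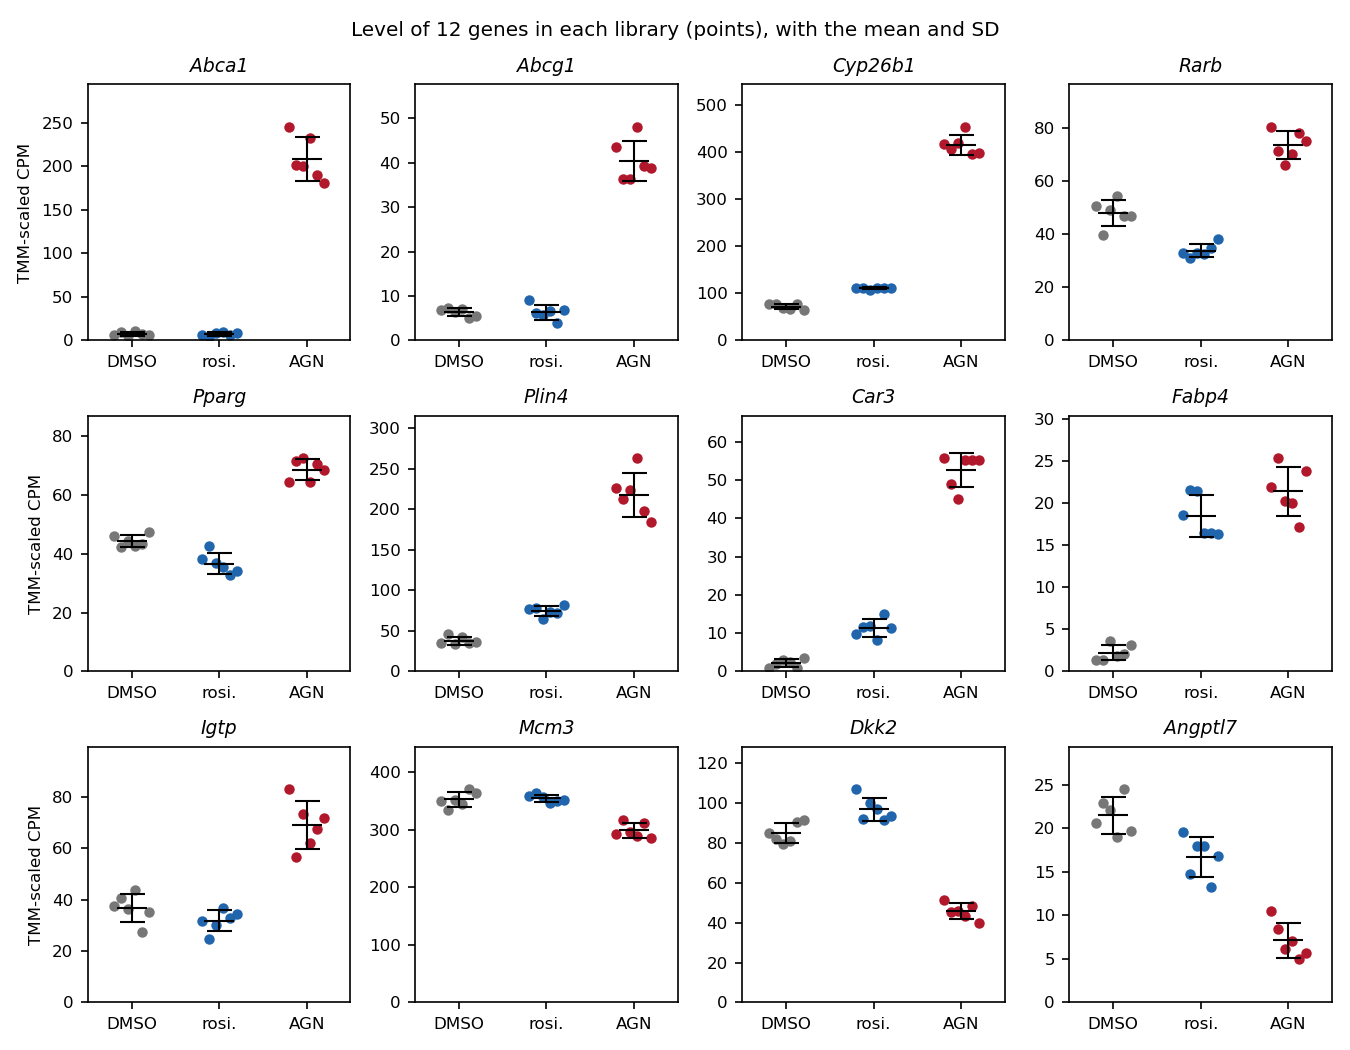
TMM-scaled CPM of 12 genes in each library (points; 6 per treatment), with the mean and SD as the bar and whiskers and each y axis starting at 0. AGN194204 stands apart from rosiglitazone for every gene but Fabp4; Rarb and Pparg lie above DMSO under AGN194204 and below it under rosiglitazone.

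RAR targets and genes that handle retinoids differed as well, in 8 of 14 tested (24 listed), 7 of them higher under AGN194204. As shares, 50% were higher and 7.14% lower, against 13.5% and 11.2% of all genes. Cyp26b1, the enzyme that clears retinoic acid, had 395, 411 and 452 CPM under AGN194204 and 108, 111 and 112 CPM under rosiglitazone. That tight separation gave 1.90 ± 0.04 (3.74-fold, adjusted p = 6.17e-31). Rosiglitazone was itself above the DMSO range of 64.7 to 77.2 CPM, by 0.63 (adjusted p = 7.72e-12). Dhrs3, which reduces retinal to retinol, had 29.9, 35.6 and 44 CPM against 5.84, 10.1 and 12.1 CPM (1.91 ± 0.13). Tgm2, encoding a transglutaminase long known as retinoid-induced, had 52.7, 69 and 83.6 CPM against 27.4, 30 and 30.4 CPM (1.22 ± 0.10), with DMSO between them at 35.5 to 49.7 CPM. The lower member was Crabp1, a cytosolic retinoic acid binding protein, at 54.5 ± 1.43 against 70 ± 3.35 CPM (-0.36, adjusted p = 1.08e-05). Hoxa5, a retinoic acid target of the embryo, was not called.

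Targets of the vitamin D and thyroid receptors gave 4 higher (40%) and 1 lower (10%) of 10 tested (16 listed). Over all genes the shares were 13.5% and 11.2%. Klf9, a thyroid and glucocorticoid target, had 80.4 ± 7.13 CPM under AGN194204 and 54.8 ± 4.86 CPM under rosiglitazone (0.55, adjusted p = 1.14e-08). Dio3, which inactivates thyroid hormone, was at 23 ± 3.05 against 14.4 ± 2.47 CPM (0.68) and Cdkn1a, a cell cycle inhibitor, was 0.29 higher. Tnfsf11 (RANKL), a vitamin D target that drives osteoclast formation, was lower at 4.3 ± 1.4 against 7.7 ± 1.15 CPM (-0.83, adjusted p = 0.00748); under spike-in scaling its adjusted p was 0.0523. The list had 2 lower calls without AGN194204 replicate 5.

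PPAR targets are the genes both ligands can reach through the same dimer. Of 25 tested (40 listed), 14 were higher under AGN194204 (56%, against 13.5% of all genes) and 1 was lower (4%, against 11.2%). The other 10 were not called, and the median was 0.22. Against DMSO 20 of the 25 rose under AGN194204 and 7 under rosiglitazone, and 0 fell under either. Over all genes tested 12.8% rose under AGN194204 and 0.615% under rosiglitazone. Plin4, a lipid droplet coat protein, had 184, 218 and 263 CPM under AGN194204 and 64.6, 75.4 and 81.6 CPM under rosiglitazone, with DMSO at 33.4 to 46.3 CPM. The 3 groups did not overlap, and the compounds differed by 1.54 ± 0.07 (2.92-fold, adjusted p = 6.46e-20). The same order held for Lpl, lipoprotein lipase, at 296, 327 and 352 CPM against 217, 223 and 235 CPM and 157 to 169 CPM in DMSO. Its difference was 0.54 ± 0.04 (adjusted p = 1.12e-14). Angptl4, a secreted inhibitor of that lipase, had 291 to 320 CPM against 208 to 228 CPM and 132 to 150 CPM in DMSO (0.47, adjusted p = 2.54e-12). Pdk4, a kinase that closes the pyruvate dehydrogenase gate, had 125 to 156 CPM against 79.8 to 92.2 CPM and 49.6 to 57.9 CPM in DMSO (0.63, adjusted p = 5.29e-12). Acsl1, a fatty acid activating enzyme, was the exception at -0.30 with overlapping groups (adjusted p = 0.026), and that call was lost under spike-in scaling (adjusted p = 0.322) and without AGN194204 replicate 5 (0.0788) or rosiglitazone replicate 1 (0.0808), 2 (0.081) or 5 (0.0504).

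**Figure D3:**
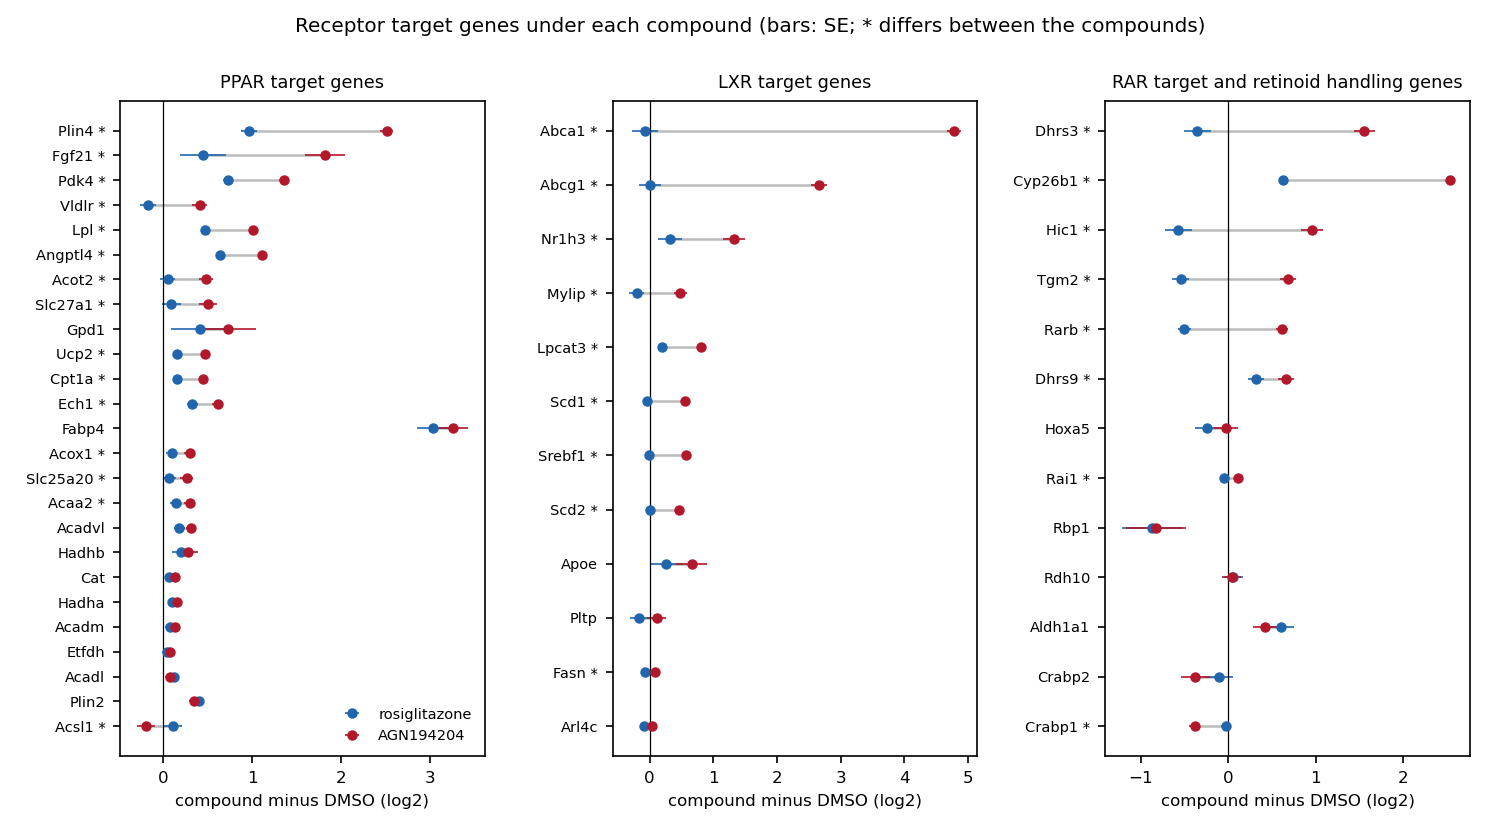
Each row is 1 of the tested target genes: the x axis gives its fitted change against the shared DMSO libraries (log2) under rosiglitazone (blue) and AGN194204 (red), bars are SE, and an asterisk marks a difference between the compounds at an adjusted p under 0.05. For PPAR targets both points lie mostly right of 0 with red farther out, for LXR targets blue lies between -0.21 and 0.32 (1 of 12, Lpcat3 at 0.20, called against DMSO) while red reaches 4.78, and for several RAR targets the points lie on opposite sides of 0.

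Some genes were changed by both ligands in the same direction. They were sought among genes called against DMSO for both compounds whose 95% interval of the difference between compounds lay inside -0.5 to 0.5 (log2). Fabp4, the fatty acid binding protein best known as an early PPARγ target of fat cells, had 17.2, 21.1 and 25.4 CPM under AGN194204, 16.4, 17.6 and 21.6 CPM under rosiglitazone and 1.37 to 3.57 CPM in DMSO. The 2 treated groups overlapped and lay above every DMSO library, and their difference was 0.22 with an interval of -0.02 to 0.46 (adjusted p = 0.194). Plin2, the droplet coat protein of most cells, had 66.3 to 69.4 CPM and 57.8 to 78.6 CPM against 48.6 to 56.5 CPM in DMSO (difference -0.05, interval -0.17 to 0.07). The others that rose with both were Sema3e (0.06 between the compounds), Aldh1a1 (-0.18), Cadm4 (0.07), Klf11 (0.28), Igf1 (0.14) and Sema3c (0.10). Of these only Klf11, a Krüppel-like factor, was called between the compounds (adjusted p = 0.00337); Sema3c was called once AGN194204 replicate 4 was left out (adjusted p = 0.021). The 4 that fell with both and were not called between them were Adora2b (-0.09), Ildr2 (-0.09), Bmpr1b (0.13) and Antxr2 (-0.05). A missed threshold does not show that the compounds act alike on these genes, and the intervals give what the 12 libraries allow.

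Other genes moved to opposite sides of the solvent level. Besides Rarb and Tgm2, the rule for such genes named Ltbp2, a binding protein of the matrix fibrils (225 ± 18.9 CPM under AGN194204, 136 ± 7.54 CPM under rosiglitazone and 180 CPM in DMSO), and Tns1, a focal adhesion protein (262 ± 20, 152 ± 9.18 and 189 CPM). All 4 were up under AGN194204 and down under rosiglitazone. No gene met the reverse rule. For Tns1 the fitted changes against DMSO were 0.47 and -0.32, and between the compounds 0.79 ± 0.05 (adjusted p = 2.98e-14).

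Other genes were graded, with rosiglitazone between DMSO and AGN194204. Car3, a carbonic anhydrase abundant in fat tissue, had 45, 55.2 and 55.7 CPM under AGN194204, 8.15, 11.5 and 15 CPM under rosiglitazone and 0.936 to 3.61 CPM in DMSO. The groups did not overlap; rosiglitazone exceeded DMSO by 2.37 and AGN194204 exceeded rosiglitazone by 2.21 ± 0.11 (4.64-fold, adjusted p = 2.58e-18). Wisp2, a secreted matrix protein and modulator of the commitment to fat, had 54.6, 65 and 71.7 CPM against 16.7, 22.3 and 24.6 CPM (1.59 ± 0.10) and 8.69 to 16.9 CPM in DMSO. Ebf2, a transcription factor of brown fat precursors, had 28.4 to 40.3 CPM against 14.3 to 21.9 CPM (0.93) and 8.65 to 14.7 CPM in DMSO. Car2, another carbonic anhydrase, was at 15.8 ± 2.9 against 3.33 ± 1.32 CPM (2.22), where rosiglitazone against DMSO did not pass (adjusted p = 0.0888).

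Beyond receptor targets, the 15 largest higher genes by the naming rule also took in Wnk4, a kinase of ion transport, at 186, 199 and 209 CPM against 47.2, 54.6 and 63.8 CPM (1.85 ± 0.05, 3.61-fold, adjusted p = 3e-26). The rest were genes of low level: Pdgfb, a growth factor for stromal and mural cells (7.29 ± 1.73 against 1.2 ± 0.689 CPM, 2.56), Phyhip (2.24), Pappa2, a protease of IGF binding proteins (2.22), Thsd4 (2.14), Sprr1a (1.92), Hcar1, the lactate receptor (1.83), Grap (1.79) and Cdhr1 (1.77). Their AGN194204 means were 4.2 to 13.2 CPM and their rosiglitazone means 0.847 to 3.66 CPM. At this depth such levels rest on few reads. Some of these genes could pass the filter on low counts only through the libraries where they are high. Phyhip, at 2.46 to 6.6 CPM under AGN194204, overlapped its DMSO range of 0.936 to 2.94 CPM. Thsd4 did as well (2.46 to 7.96 CPM, and 1.64 to 3.53 CPM in DMSO).

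Among the 15 largest lower values of genes with separate groups and a mean log2 CPM of at least 1, Scg2, a secretory granule protein, had 1.59, 3.35 and 5.37 CPM under AGN194204 and 9.86, 12.9 and 14 CPM under rosiglitazone (-1.77 ± 0.23, adjusted p = 1.51e-07). Ass1, an enzyme of arginine synthesis, was at 2.49 ± 0.627 against 7.6 ± 1.43 CPM (-1.60), and Ngef, a guanine nucleotide exchange factor, at 11.4 ± 1.63 against 27.3 ± 3.6 CPM (-1.26). Dkk2, a secreted Wnt antagonist, had 39.9, 45.6 and 51.5 CPM against 91.5, 95.2 and 107 CPM. The DMSO libraries had 79.4 to 91.6 CPM, and the difference between compounds was -1.08 ± 0.06 (adjusted p = 5.21e-16). Angptl7, an angiopoietin-like secreted protein, had 5.04 to 10.5 CPM against 13.3 to 19.5 CPM (-1.22). The secreted antagonists Sfrp2, for Wnt (-1.12), and Nog, for BMP (-1.10), and the cytokine Il11 (-0.96) were lower as well. The others were Rcan2 (-1.36), Slc17a6 (-1.11), Has1 (-1.02), Pgbd1 (-1.0), Arhgdib (-0.99), Pi15 (-0.91) and Plxnb1 (-0.85). Pgbd1 rested on 1.41 against 2.88 CPM and was called at an adjusted p of 0.0404; it was lost under spike-in scaling (0.117), DESeq2 (0.0557), both other filters on low counts and leave-one-out fits that dropped AGN194204 replicate 2, 3, 5 or 6 or rosiglitazone replicate 1, 2, 4, 5 or 6.

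Regulators of fat cell formation differed in 21 of 33 tested genes (34 listed), with 17 higher and 4 lower. Their shares were 51.5% and 12.1%, against 13.5% and 11.2% of all genes. Besides Pparg, Wisp2 and Srebf1, the higher ones included the early factors Ebf1 and Ebf3, Zfp423 and Zfp467, Klf4, Stat5a and Stat5b, and also Gata3, Klf2, Klf3 and Ddit3, which are known as inhibitors. Lower were Klf5, a factor of early fat cell formation (99.2 ± 8.7 against 130 ± 7.67 CPM, -0.39, adjusted p = 1.89e-07), Dlk1, the Pref-1 inhibitor of fat cells (124 ± 8.2 against 143 ± 5.07 CPM, -0.20), Creb1 (-0.19) and Nr2f2. The list thus held promoters and inhibitors in both directions. Its higher count dropped to 11 without AGN194204 replicate 1, AGN194204 replicate 4 or rosiglitazone replicate 3, and its lower count to 1 under spike-in scaling. The C/EBP factors that act with PPARγ were not called: Cebpa had 17.5 to 23.9 CPM against 13.7 to 24.3 CPM (0.08, interval -0.14 to 0.30), and Cebpb differed by -0.10 (adjusted p = 0.181). Cd36, the fatty acid transporter, did not pass the filter on low counts.

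Of 21 tested fat cell markers and droplet coats (38 listed), 7 were higher (33.3%, against 13.5% of all genes). The 1 lower (4.76%, against 11.2%) was Acsl1, described above. The higher ones were Plin4, Car3 and Lpl, the lipases Lipe and Pnpla2, and Bscl2 and Agpat2, which serve droplet and phospholipid assembly. The remaining 17 of the 38, among them Adipoq and Lep, were too low to test. Thermogenic genes gave 6 testable members of 19, with Ebf2 and Fgf21 higher (33.3%) and Dio2 lower (16.7%). Fgf21, a hormone and PPAR target, had 8.43 to 12.7 CPM against 2.17 to 6.05 CPM (1.37 ± 0.21). Dio2, which activates thyroid hormone in brown fat, was lower at 0.963 ± 0.573 against 2.89 ± 1.02 CPM (-1.56), with overlapping groups. Dio2 did not pass the low-count filter when only the 12 libraries were fitted, which left the list 0 lower calls.

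Lipid metabolism differed along its synthetic and oxidative arms. Fatty acid and triglyceride synthesis had 15 of 26 genes higher (57.7%, against 13.5% of all genes) and 0 lower (against 11.2%). The higher ones were led by Scd1 (520 to 594 CPM against 351 to 384 CPM, edgeR adjusted p = 1.66e-16), Scd2 (873 ± 39.2 against 637 ± 10 CPM) and Srebf1 (137 ± 13.6 against 92.2 ± 5.18 CPM). For all 3 the rosiglitazone level was within 0.05 log2 of DMSO. Cholesterol synthesis and uptake had 11 of 29 higher (37.9%) and 0 lower. Sizes were small (median 0.10), for example Insig1, which retains the sterol sensor (0.30), and Lss, lanosterol synthase (0.33). Mylip, an LXR target that degrades the LDL receptor, was at 25.6 ± 3.44 against 15.9 ± 2.81 CPM (0.69). Fatty acid oxidation had 13 of 34 higher (38.2%) and 0 lower. The higher ones included Cpt1a, the gate of mitochondrial uptake (231 ± 16.2 against 189 ± 10.4 CPM, 0.29) and Acot2 (0.43). Without AGN194204 replicate 4, 8 genes were called higher. Of 48 oxidative phosphorylation subunits 0 were called in either direction by edgeR, 3 had an unadjusted p under 0.05 (all lower) and DESeq2 also called 0. Their median was -0.04, and 0.01 under spike-in scaling. Leaving out single libraries gave up to 2 lower calls, and leaving out AGN194204 replicates 5 and 6 gave 3.

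Of 28 genes of glucose use 5 were higher (17.9%, against 13.5% of all genes) and 3 lower (10.7%, against 11.2%), shares near the background. Pcx, pyruvate carboxylase (181 ± 14.1 against 135 ± 9.97 CPM, 0.42), and Pdk2 (0.51) were higher beside Pdk4. Slc2a1, the GLUT1 transporter (92.5 ± 4.14 against 113 ± 3.44 CPM, -0.29), Hk2 (-0.33) and Pdha1 (-0.10) were lower. Spike-in scaling left 3 and 1. Pdha1 was lost there (adjusted p = 0.736), under DESeq2 (0.0511), with no filter on low counts (0.14) and without AGN194204 replicate 1, 2, 4 or 6 or rosiglitazone replicate 3 or 4 (0.0613 to 0.105).

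**Figure D4:**
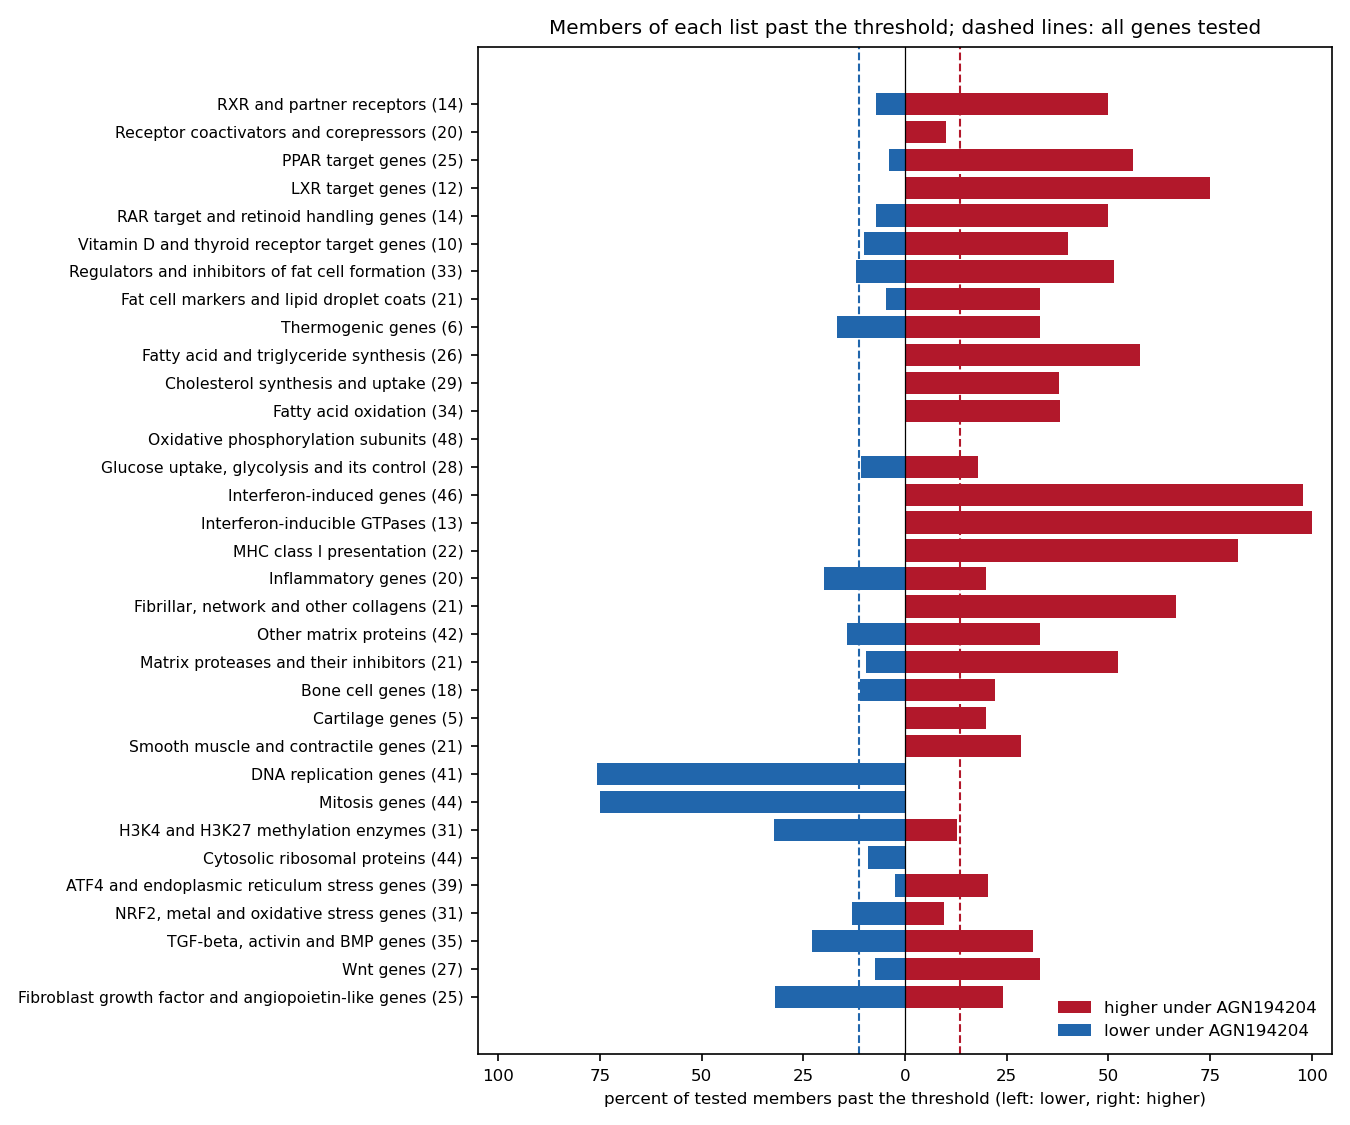
For each of the 33 lists (number of tested genes in brackets) the bars give the percent of tested members past the threshold, higher to the right in red and lower to the left in blue; dashed lines are the shares over all genes tested, 13.5% and 11.2%. Interferon-induced genes (97.8%), GTPases (100%) and MHC class I genes (81.8%) extend farthest to the right, DNA replication (75.6%) and mitosis genes (75%) farthest to the left.

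Interferon-induced genes were higher under AGN194204 almost throughout. Of 46 tested (48 listed), 45 were higher under AGN194204, with a median of 0.75; Ifitm2 was the member not called. All 13 tested interferon-inducible GTPases (16 listed), which attack vacuoles of intracellular pathogens, were higher, with a median of 0.86. Of 22 tested genes of MHC class I antigen presentation 18 were higher (median 0.43). As shares these were 97.8%, 100% and 81.8%, against 13.5% of all genes. Under spike-in scaling the counts were 45, 13 and 17, and without AGN194204 replicates 5 and 6 they were 43, 13 and 16.

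Stat2, a transcription factor that interferon activates, had 231, 245 and 275 CPM under AGN194204 and 112, 147 and 167 CPM under rosiglitazone (0.79 ± 0.07, adjusted p = 1.68e-10). Ifit2, which restrains translation of foreign RNA, had 259, 298 and 324 CPM against 167, 194 and 224 CPM (0.59 ± 0.06), and Lgals3bp had 343 ± 25.7 against 204 ± 20.8 CPM (0.74). No AGN194204 library fell into the rosiglitazone range for these genes. The GTPase Igtp had 56.7, 69.7 and 83 CPM against 24.9, 32.3 and 36.8 CPM (1.12 ± 0.11, 2.17-fold, adjusted p = 7.4e-10), its neighbour Irgm2 88.7 to 116 CPM against 29.9 to 63.3 CPM (1.13) and Gbp3 129 ± 14.1 against 69.6 ± 14.2 CPM (0.89). Nlrc5, the activator of MHC class I genes, had 12.4, 14.1 and 20.3 CPM against 3.68, 6.21 and 7.24 CPM (1.36 ± 0.19, 2.57-fold). The peptide transporter genes Tap1 (93 ± 14.5 against 43.4 ± 6.5 CPM, 1.10) and Tap2 (0.75) followed it. Rosiglitazone was not called against DMSO for any gene named in this paragraph, and its DMSO ranges overlapped (Igtp 27.3 to 43.6 CPM in DMSO).

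Promoter letters were counted over the same lists. The core letters GAAANNGAAA, searched on both strands from 250 bases before to 50 after the start, occurred in 3.71% of the 9028 tested genes that have a promoter in the RefSeq table. They occurred in 7.57% of the higher genes (98 of 1294) and 2.74% of the lower ones (30 of 1095). Among list members with a promoter, 17 of 34 interferon-induced genes, 9 of 9 GTPases and 5 of 18 MHC class I genes held them. Most members of these lists are also among the higher genes, so the counts overlap. In Igtp, shown above, the last base of the match GAAACTGAAA lies 25 bases before the start. In Isg15 the last bases of the 3 overlapping copies lie 69, 63 and 57 bases before it. A match is a description of the letters and not a binding site. Several of these genes have near-identical neighbours (the Oas1, Gbp and Tgtp clusters and the H2 genes), between which the counting could have split reads. Related genes can also share promoter letters, as Igtp and Irgm2 do around the same match.

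Inflammatory genes outside that group went both ways, with 4 higher and 4 lower of 20 (20% each, against 13.5% and 11.2% of all genes). Higher were C4b, a complement component (8.69 ± 2.23 against 3.69 ± 0.829 CPM, 1.24), the chemokines Ccl5 (0.30) and Cxcl12 (390 ± 25.7 against 315 ± 13.9 CPM, 0.31), and Ptges. Lower were Il33, a cytokine that stromal cells release on damage, at 16.6, 20.1 and 23.6 CPM against 32.6, 37.3 and 39.6 CPM (-0.85 ± 0.10, adjusted p = 3.44e-08), Il1rn (-0.95), Cxcl1 (-0.57) and Ptgs2. Without AGN194204 replicates 5 and 6, Il1rn was at -0.68 (adjusted p = 0.068).

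Genes of cell division were lower by small amounts. All 41 tested DNA replication genes had a fitted difference below 0, and 31 passed the test, with a median of -0.21. All 44 tested mitosis genes lay below 0 as well, 33 of them past the threshold, with a median of -0.17. As shares, 75.6% and 75% were called lower, against 11.2% of all genes. Mcm3, a subunit of the replicative helicase, had 286, 294 and 317 CPM under AGN194204 and 347, 354 and 363 CPM under rosiglitazone (-0.25 ± 0.03, adjusted p = 5.64e-07). Uhrf1, which keeps DNA methylation through replication, was at 218 ± 9.63 against 259 ± 8 CPM (-0.24), and Pola1, the primase-bound polymerase, at 96.5 ± 5.75 against 125 ± 8.69 CPM (-0.37). Top2a, the topoisomerase of dividing cells, had 399, 457 and 491 CPM against 501, 541 and 556 CPM (-0.24 ± 0.04), with the condensin gene Smc2 (-0.30) and the cytokinesis gene Ect2 (-0.27) beside it. In each of these 6 genes the groups were separate. Spike-in scaling ended most of these calls: 5 replication genes and 0 mitosis genes stayed past the threshold, although 40 of 41 and 41 of 44 were still below 0. Mcm3 was then at -0.20 ± 0.07 (edgeR adjusted p = 0.079) and Top2a at -0.19 ± 0.08 (0.139). Both SEs were larger than in the main fit, beside the smaller differences.

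An E2F site, searched on both strands as TTTCCCGC, TTTCGCGC, TTTGCCGC or TTTGGCGC in the same windows, was present in 4.86% of all promoters, 2.63% of those of higher genes (34 of 1294) and 8.13% of those of lower genes (89 of 1095). Of 33 replication genes with a promoter 13 held one, including Orc1, Mcm3, Pola1 and Uhrf1, and of 35 mitosis genes 2 did. Most members of these lists are also among the lower genes, so the counts overlap. Among the LXR targets 3 of 9 (33.3%) also held one, Abca1, Fasn and Arl4c. The half-site repeat marked in Abca1, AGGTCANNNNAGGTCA with at most 3 mismatches in its 12 half-site bases, is looser and was found in 20.7% of all promoters, 23.5% for higher and 19.9% for lower genes. It was held by 4 of 9 LXR targets (44.4%), and by as large or larger shares of other lists, such as 10 of 20 fatty acid synthesis genes (50%), 9 of 18 MHC class I genes (50%) and 4 of 7 vitamin D and thyroid receptor targets (57.1%).

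**Figure D5:**
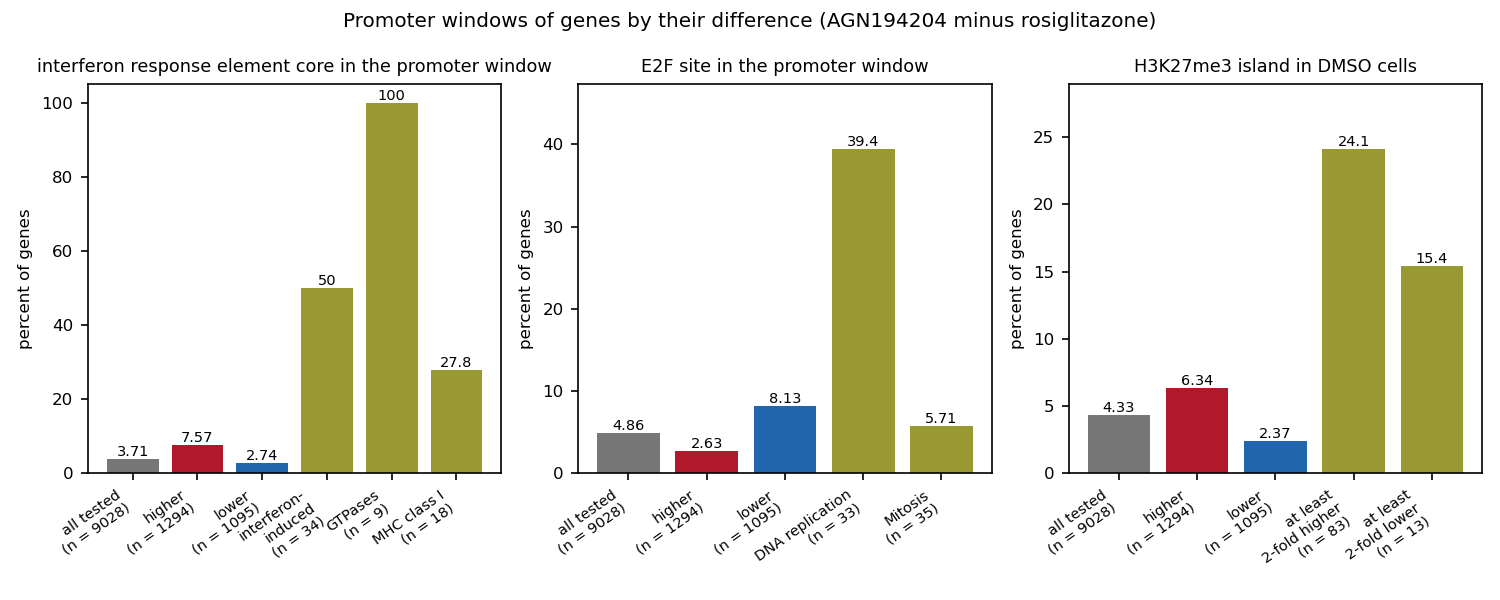
Bars give the percent of genes with a promoter window in RefSeq (n below each bar) that hold the interferon response element core (left), an E2F site (middle) or an H3K27me3 island in at least 3 of 4 DMSO libraries (right). Grey is all tested genes, red higher and blue lower under AGN194204, and olive the lists or the genes at least 2-fold apart; the GTPases reach 100% on the left and the genes at least 2-fold higher 24.1% on the right.

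Genes for the enzymes that write and erase H3K4 and H3K27 methylation gave 10 lower and 4 higher of 31 tested. These were 32.3% and 12.9%, against 11.2% and 13.5% of all genes. Ezh2, the H3K27 methyltransferase of dividing cells, had 115, 125 and 134 CPM against 145, 151 and 160 CPM (-0.27 ± 0.04, adjusted p = 4.66e-06). Its relative Ezh1 was higher at 39.1 ± 3.93 against 27 ± 4.14 CPM (0.52), as were Phf1 (0.32) and the H3K27 demethylase Kdm6b (0.27). The Polycomb genes Eed and Suz12 were lower, as were the H3K4 genes Ash2l (-0.21), Wdr5 and Rbbp5 and the demethylase Kdm1a (-0.27). Under spike-in scaling 0 of the 10 lower calls stayed, Ezh2 being at -0.22 (adjusted p = 0.0587), and the list's median moved from -0.04 to 0.01. Of 44 ribosomal protein genes 4 were lower, a share of 9.09% under the background; among them Rps19 (-0.17) and Rpl6 (-0.15). The count was 0 under spike-in scaling, 1 without AGN194204 replicate 4, 12 without replicate 5 and 14 without replicates 5 and 6.

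The marks of the untreated chromatin were measured in DMSO cells of the same series. H3K27me3, the mark of Polycomb repression, covered the promoter window of 4.33% of tested genes in at least 3 of 4 DMSO libraries, by the islands that the authors called. The share was 6.34% for higher and 2.37% for lower genes, and 24.1% (20 of 83) for genes at least 2-fold higher under AGN194204, such as Alpl, Igfbp3, Wnt2b, Pax5 and Pde1b. Of the genes at least 2-fold lower, 2 of 13 (15.4%) had it, Rcan2 and Sfrp2. The mark was more frequent at genes of low level. Among genes under 10 CPM in DMSO the shares were 15.4% of all and 29.2% (19 of 65) of those at least 2-fold higher, and from 10 CPM up they were 2.24% and 5.56% (1 of 18). H3K4me3, the mark of active promoters, was found at 95.5% of all windows, 67.5% of the genes at least 2-fold higher and 53.8% of those at least 2-fold lower. Its share also differed by level: under 10 CPM it was at 81.5% of all windows and 61.5% of the genes at least 2-fold higher, and from 10 CPM up at 98.2% and 88.9%. The cut at 10 CPM does not match levels within either class. Genes nearly silent in DMSO could pass the filter on low counts through the libraries where they are high. The part of that selection in the shares of both marks was not tested. Interferon-induced genes and GTPases held no H3K27me3 island in 34 and 9 windows, whereas 4 of 18 MHC class I windows did (H2-K1, H2-D1, H2-Q4 and H2-Q6).

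Matrix genes were called higher more often than lower. Of 21 collagen genes tested (26 listed) 14 were higher (66.7%, against 13.5% of all genes) and 0 lower. The higher ones included Col1a1, Col1a2 and Col3a1, the fibrillar collagens of connective tissue. Col27a1 had 52.5 to 67.6 CPM against 26.2 to 36.6 CPM (0.89 ± 0.09), Col6a2 283 ± 32.4 against 187 ± 11.8 CPM (0.60) and Col6a1 403 to 505 CPM against 341 to 365 CPM (0.38, adjusted p = 1.26e-09). Of 42 other matrix genes 14 were higher (33.3%, against 13.5% of all genes) and 6 lower (14.3%, against 11.2%). Ogn, the proteoglycan osteoglycin, had 110, 132 and 140 CPM against 52.6, 67.4 and 72.1 CPM (0.99 ± 0.07, 1.99-fold), and Loxl4, a collagen crosslinking enzyme, 169 ± 10.5 against 97.9 ± 3.64 CPM (0.79). Vcan, versican (200 ± 11.7 against 252 ± 9.14 CPM, -0.33), Tnc, tenascin C (-0.18), and Has1, a hyaluronan synthase, were lower, and spike-in scaling left 2 of the 6 lower calls. Proteases and their inhibitors gave 11 higher (52.4%, against 13.5% of all genes) and 2 lower (9.52%, against 11.2%) of 21. Timp3 (233 ± 12.6 against 188 ± 9.55 CPM, 0.31), Mmp23 (0.66) and Adamts9 (0.46) were higher. Timp1 (88.7 ± 4.89 against 114 ± 1.44 CPM, -0.37) was lower, and spike-in scaling left 1 of the 2 lower calls.

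Of 18 bone genes tested (29 listed), 4 were higher (22.2%, against 13.5% of all genes) and 2 lower (11.1%, against 11.2%). Runx2, the master regulator of bone cells, had 134 to 155 CPM against 134 to 156 CPM (0.04, interval -0.05 to 0.14). Alpl, alkaline phosphatase, was higher at 6.45 ± 1.6 against 2.27 ± 1.13 CPM (1.49 ± 0.31, adjusted p = 0.000321), as were Wnt10b (0.53) and Lrp6 (0.14). Phex, an osteocyte peptidase, was lower (-0.67), with Tnfsf11 the other. Wnt10b lost its call without AGN194204 replicate 2 (adjusted p = 0.0834). Lrp6 lost it under spike-in scaling (0.207) and without AGN194204 replicate 1 (0.0997) or 4 (0.0821) or rosiglitazone replicate 2 (0.0703), 3 (0.072) or 5 (0.0631). The higher count was 2 under spike-in scaling and without AGN194204 replicate 1, 2 or 4 or rosiglitazone replicate 3 or 5, and the lower count was 0 under spike-in scaling. Of 5 cartilage genes tested 1 (20%, against 13.5% of all genes) was higher, Col11a2 (0.64). It was not called without rosiglitazone replicate 2 (edgeR adjusted p = 0.0543). Among 21 smooth muscle genes 6 were higher (28.6%, against 13.5% of all genes) and 0 lower. Lmod1 (25.2 ± 1.81 against 14.9 ± 1.66 CPM, 0.75) led them, then Csrp1 and Myl9 (0.29 each), while Acta2 and Tagln were not called.

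Signalling genes were called in both directions. Of 35 TGF-beta, activin and BMP genes 11 were higher (31.4%, against 13.5% of all genes) and 8 lower (22.9%, against 11.2%). Spike-in scaling left 7 and 2. The latent TGF-beta binding proteins Ltbp2 (206 to 257 CPM against 126 to 150 CPM, 0.72) and Ltbp3 (732 ± 24.9 against 550 ± 16.3 CPM, 0.41) and the inhibitory Smad6 (112 ± 5.56 against 74.9 ± 7.28 CPM, 0.58) were higher. Nog, the BMP antagonist Grem1 (-0.24) and the receptor gene Tgfbr2 (-0.21) were lower, the latter 2 not under spike-in scaling (adjusted p = 0.0861 and 0.262). Of 27 Wnt genes 9 were higher (33.3%), with the receptors Fzd7 (182 ± 16.8 against 138 ± 7.19 CPM, 0.40), Fzd8 (0.34) and Fzd2 (0.18) first. The 2 lower ones (7.41%) were the antagonists Dkk2 and Sfrp2. Sfrp2, at 1.06 against 2.3 CPM, was not called with no filter on low counts (adjusted p = 0.0558) and did not pass the filter when only the 12 libraries were fitted. Of 25 growth factor and angiopoietin-like genes 6 were higher (24%) and 8 lower (32%). Angptl4 and Fgfrl1 (0.48) were higher, and Dusp6, a feedback phosphatase of ERK signalling (69.9 ± 3.34 against 91.8 ± 3.83 CPM, -0.39), and Spred1 (-0.24) were lower, with Etv4, Etv5 and Dusp4 lower beside them; 2 of the 8 stayed under spike-in scaling.

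ATF4 and endoplasmic reticulum stress genes gave 8 higher (20.5%, against 13.5% of all genes) and 1 lower (2.56%, against 11.2%) of 39, with Ddit4 (126 ± 7.5 against 101 ± 5.16 CPM, 0.32), Sesn2 (0.48) and Trib3 (0.38) first and Psat1 lower (-0.15); the higher count was 5 under spike-in scaling and without AGN194204 replicate 2, and the lower count was 2 without rosiglitazone replicate 5. Genes of NRF2, metal and oxidative stress gave 3 higher (9.68%) and 4 lower (12.9%) of 31, near the shares of all genes. Hmox1, haem oxygenase (237 ± 7.82 against 204 ± 2.88 CPM, 0.22), Gstm1 (0.22) and Sqstm1 (0.12) were higher. Txnrd1 (-0.17), Gclc (-0.27) and Gsr (-0.14) were lower, and 0 of the 4 lower calls stayed under spike-in scaling, 2 without rosiglitazone replicate 2. Gsr was not called without AGN194204 replicate 3 (adjusted p = 0.0602) or rosiglitazone replicate 2 (0.0644), nor Sqstm1 without AGN194204 replicate 5 (0.0669) or rosiglitazone replicate 2 (0.0505).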

How the data were processed

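RNA was measured in 24 libraries, of which the 6 of AGN194204 and the 6 of rosiglitazone form the contrast. The values are raw counts per gene that the authors deposited; tools named in the submitters' processing notes are FastQC, STAR, DESeq2, SAMtools, DiffBind and SICER, with builds mm10 and GRCm38, and the counting tool and its use of strand are not given in the sources used here. Libraries were strand-specific and held ERCC spike-ins, per the labels' protocols. The 92 spike-ins and 5 entries that name no gene entered neither library sizes nor tests; reads on no feature were 21.2% to 23.4% and 21.7% to 23.1% of the counts in the 2 groups. Genes passing edgeR's filterByExpr (12529) were fitted once over all 24 libraries with TMM scaling and the quasi-likelihood test (edgeR 4.0.16, limma 3.58.1, R 4.3.3), and p-values were Benjamini-Hochberg adjusted over all genes with a threshold of 0.05. Levels are TMM-scaled CPM with the SD of 6 libraries, and differences are fitted log2 values with SE. The prior count of 2 was used for log2 CPM levels and principal components only, not for the fitted differences. On simulated data with 200 changed genes among 12529, the test recovered 58%, 88%, 94% and 100% of genes changed 1.2-, 1.5-, 2- and 4-fold, with 12 false among 182 calls. The changed genes were drawn from those with a mean of at least 2 CPM, so the rates do not cover lower levels. They were also far fewer than the 3097 genes called in the data, where the adjustment differs. Tested alternatives were other scalings, filters on low counts, DESeq2 1.42.0, the 12 libraries alone, a replicate block and leaving out each library; leaving out AGN194204 replicates 5 and 6 was chosen after seeing the data.

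Histone islands, called with SICER per the submitters' processing notes, were used only for their position in DMSO libraries; their fold ratio, p-value and score columns, as the authors deposited them, gave no result. A promoter was taken as marked where an island overlapped the window from 250 bases before to 50 after the start in at least 3 of 4 libraries. Promoter sequences are RefSeq's, GRCm38.p6, and 9028 tested genes matched by symbol.

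The members and lists were chosen with earlier results of these data known. Genes were named by rule: the 15 largest differences in each direction among called genes with separate groups and a mean log2 CPM of at least 1, the first 3 called members of each list by adjusted p in each direction, a set of receptors and their best known targets, the 8 largest rises and 4 largest falls shared by both compounds, and the 5 largest changes to opposite sides of DMSO. Other list members are named only as called or not called, or as holders of a motif or mark. Some genes that these rules name are not reported here.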

Additional observations from a re-analysis of the deposited data

Results flagged for a closer look

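In 14 of 326 groups of 6 libraries (4.29%), 1 library lay far from the nearest of the others relative to the group's range; chance gives such a gap in about 1 of 20 groups. Rosiglitazone replicate 3 supplied 4 of the 14. It was low for Nr4a2 (52.3 CPM, others 56.6 to 57.6) and Col6a2 (164, others 187 to 198), and high for Phex (13.6, others 8.65 to 10.4) and Rps19 (117, others 102 to 107). The other rosiglitazone libraries were replicate 1 for Grap (4.58 CPM, others 2.1 to 2.71), replicate 4 for Arhgdib (6.75, others 10.3 to 12.1) and replicate 5 for Wnt10b (11.8, others 8.44 to 9.61). Among AGN194204 libraries, replicate 1 was high for Pi15 (10.8 CPM, others 5.5 to 6.89) and low for Klf5 (82.8, others 98.1 to 107). Replicate 2 was high for Hk2 (120, others 90.5 to 102) and replicate 3 low for Fzd8 (76.0, others 89.7 to 97.0). Replicate 4 was high for Has1 (8.88, others 4.09 to 5.62) and low for Ect2 (129, others 142 to 144), and replicate 6 low for Klf9 (66.7, others 79.9 to 86.8).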

How the results depend on the processing

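Spike-in scaling moved the lower count most, to 184 against 1400, with 1162 against 1697 higher; 33 of 160 named genes lost their call there, nearly all lower ones. With no filter on low counts 205 genes were at least 2-fold higher and 45 lower, and with at least 1 CPM in 6 libraries 33 were at least 2-fold lower, against 135 and 17. Other settings kept these counts within 1.5 times: DESeq2 gave 1585 and 1279, and the 12 libraries alone 1739 and 1506. Leaving out 1 library gave 1438 to 1742 higher and 1107 to 1360 lower genes, and 126 to 163 and 16 to 22 at 2-fold. No called gene or count reversed, but spike-in scaling turned the sign of 3 list medians, from -0.04 to 0.01 each, for oxidative phosphorylation (14 of 48 genes above 0, then 27), glucose use (12 of 28, then 15) and methylation enzymes (13 of 31, then 16). Same-numbered libraries did not deviate together in every pair (correlations -0.087 to 0.143 over 10403 genes). Replicates 2 and 4 correlated best with their own number. Correlations this weak neither show nor exclude a pairing of the samples by number, and the main fit used none. A fit with the replicate block gave 1806 higher and 1561 lower, with 137 and 18 at 2-fold. Genes of low level rested on few reads at this depth.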
